A study of Mus musculus with 9 samples.

Results

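The 39 protein-coding genes of the mouse Hox clusters were followed in differentiated C2C12 cells after knockdown of either macroH2A1 splice isoform. They were taken as all protein-coding genes whose GENCODE M21 symbol is Hoxa, Hoxb, Hoxc or Hoxd with a number, and all 39 were among the 52780 genes of the count table. C2C12 is an immortal line of mouse myoblasts, which form myotubes by fusion once serum is withdrawn. The 9 samples were collected on day 4 of differentiation. Of these, 3 received control siRNA (si Ctrl, called wild type in the sample labels), 3 received siRNA against macroH2A1.1 (si mH2A1.1) and 3 received siRNA against macroH2A1.2 (si mH2A1.2). Each siRNA was used at 10 nM and given repeatedly, so that the si Ctrl cells were transfected too. All samples come from 1 line, and its replicates are described as independent biological replicates, so the p-values measure the spread between repeats in this line.

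Hox genes encode homeodomain transcription factors that give cells their position along the body axis and the limb. In mammals they lie in 4 clusters, HoxA to HoxD, in which paralog groups run from group 1, active toward the head, to group 13, active toward the tail and the limb tips. Differentiated cells keep part of this pattern in culture, and the groups that are off are held silent by Polycomb complexes. MacroH2A1 is a histone H2A variant with a large macrodomain, best known from silent chromatin, and both isoforms come from the gene H2afy. The question was which cluster positions the myotubes expressed, and whether losing an isoform opened silent positions or changed active ones.

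H2afy reads were lower in every knockdown sample than in every si Ctrl sample. The si Ctrl samples held 56.3, 62.4 and 61.0 CPM, that is, counts scaled to a common library size, the si mH2A1.1 samples 38.9, 30 and 30.9 CPM, and the si mH2A1.2 samples 46.8, 47.2 and 43.2 CPM. The gene fell by 0.85 on the log2 scale with si mH2A1.1 (standard error 0.11, edgeR adjusted p = 0.00331), while si mH2A1.2 gave a log2 difference of -0.39 that missed the wider threshold of 0.05 (adjusted p = 0.108, standard error 0.11). For si mH2A1.2 against si Ctrl, DESeq2 gave H2afy an adjusted p of 0.0406, and edgeR with the replicate number as a block gave 0.0782. Counts per gene do not separate the isoforms. At the protein level, the authors checked the specificity of both knockdowns by immunoblotting. The table held 36924252 to 42223108 counts per sample, at which 3 counts, taken here as the floor of detection, equal 0.0691 to 0.0826 CPM. Myotube markers were present in all 9 samples, with 9 of 9 over the floor everywhere and a summed level of 11480 to 17280 CPM.

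The HoxA, HoxB, HoxC and HoxD clusters lie at chr6:52155590-52260880 (11 genes, minus strand), chr11:96194316-96368256 (10 genes, plus strand), chr15:102921103-103036852 (9 genes, plus strand) and chr2:74668310-74765142 (9 genes, plus strand) of GRCm38. The 250 bases before the RefSeq start (GRCm38.p6) of 3 members are printed below with every CpG dinucleotide in capitals. Hoxa13, the last gene of HoxA, and Hoxa3, a group 3 gene, were the members with the largest differences between the knockdowns. Hoxd13, the last gene of HoxD, had no read in any sample. The stretches lie at chr6:52260881-52261130 (minus strand), chr6:52213068-52213317 (minus strand) and chr2:74667975-74668224 (plus strand).
Hoxa13: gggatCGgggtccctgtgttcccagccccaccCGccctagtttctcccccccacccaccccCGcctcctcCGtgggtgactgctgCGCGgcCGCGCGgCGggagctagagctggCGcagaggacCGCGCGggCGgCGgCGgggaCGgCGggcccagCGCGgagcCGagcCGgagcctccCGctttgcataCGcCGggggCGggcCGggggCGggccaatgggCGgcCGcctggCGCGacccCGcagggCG
Hoxa3: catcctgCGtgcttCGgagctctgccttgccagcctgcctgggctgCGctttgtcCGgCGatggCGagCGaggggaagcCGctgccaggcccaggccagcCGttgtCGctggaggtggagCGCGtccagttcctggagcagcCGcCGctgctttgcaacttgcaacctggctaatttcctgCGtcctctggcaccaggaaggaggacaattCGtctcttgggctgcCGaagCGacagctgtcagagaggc
Hoxd13: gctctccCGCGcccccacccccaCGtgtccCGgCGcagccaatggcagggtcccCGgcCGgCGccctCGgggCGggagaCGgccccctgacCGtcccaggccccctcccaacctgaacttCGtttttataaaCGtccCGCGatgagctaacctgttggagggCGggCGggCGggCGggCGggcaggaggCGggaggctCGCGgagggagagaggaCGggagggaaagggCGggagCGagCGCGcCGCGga

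The printed stretches hold 35 CpG for Hoxa13, 18 for Hoxa3 and 31 for Hoxd13. Over the window from 250 bases before to 50 bases after the start, Hoxa13 has 45, Hoxd13 37 and Hoxa3 20, against a median of 7 over 32817 RefSeq promoters and of 14.5 over the 24 promoters found for 22 Hox members. Among these promoters the low Hoxa13 and the silent Hoxd13 have the most CpG, and the expressed Hoxa5 and the silent Hoxd1 come next with 29 each. The fewest, 4, occur for the expressed Hoxa9, for Hoxd4 and for 1 Hoxd11 promoter, the last 2 genes being at the floor. Of HoxC, the cluster with the highest levels, 1 promoter (Hoxc4, with 9 CpG) was matched, so CpG number and level were not compared. The TATA motif TATAAA, searched on both strands, occurs in 13.6% of all promoters and in 4 of the 24. The motif TGATTNAT, a site shared by Hox proteins and their Pbx partners, occurs in 3.22% of all promoters and in 2 of the 24. Both motif matches are descriptions of letters and not bound sites.

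In si Ctrl cells the transcripts came from HoxA and HoxC, hardly from HoxB, and almost not at all from HoxD. Levels between genes were compared as CPM per kilobase of merged exons (RPKM scale), and a mean of at least 1 was called expressed. By this measure 12 of the 39 members were expressed, 12 were low (under 1, with more than 3 counts in all 3 samples) and 15 were at the floor in at least 1 sample. HoxC gave 67.7% of the summed level (55.7 ± 6.98, SD, n = 3) and HoxA 31.5% (25.8 ± 1.29). HoxB gave 0.819% and HoxD 0.0270%. The posterior groups 9 to 13 held 74.1% of the sum, groups 5 to 8 held 18.2% and groups 1 to 4 held 7.73%. In bulk RNA, fewer cells of a type and less RNA per cell cannot be told apart, here and in every comparison below.

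**Figure D1:**
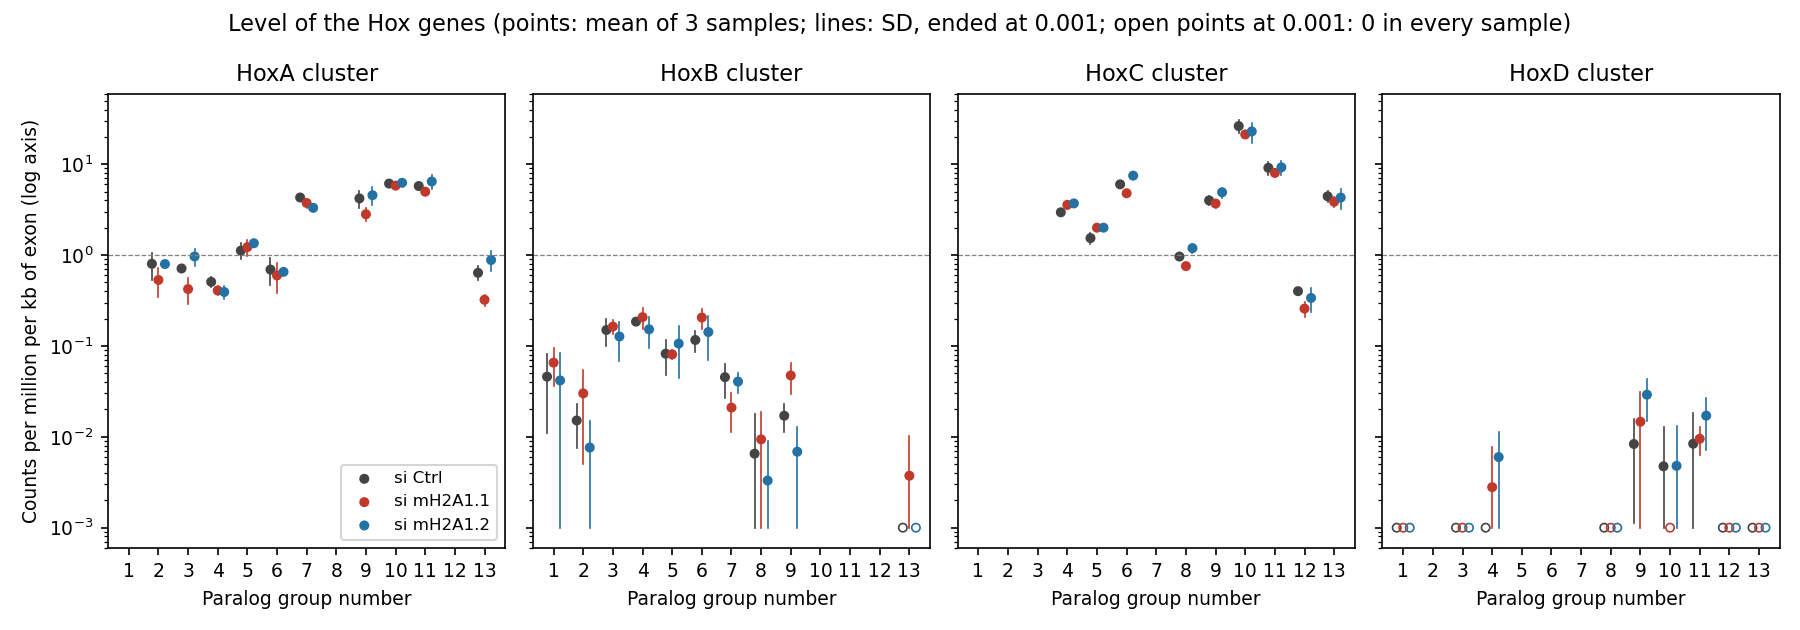
Level of the Hox genes on the RPKM scale (log axis), by cluster (panels) and paralog group (horizontal axis). Points are means and lines SDs of the 3 samples of a group, ended at 0.001, and open points at 0.001 stand for 0 in every sample of the group. Levels over 1 (dashed line) occur in HoxA and HoxC only, and the 3 groups lie close together at most positions.

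Hoxc10, a posterior gene that specifies lumbar and hindlimb levels, was the highest member. Its level in si Ctrl was 26.3 ± 4.31 on the RPKM scale, with 41.3, 57.6 and 51.6 CPM in the 3 samples. Hoxc11, its neighbour toward the posterior end, came next with 9.12 ± 1.5. These levels did not overlap, and both genes stood above all others.

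A middle range of 7 genes followed in steps. Hoxa10 (6.12 ± 0.114), Hoxc6 (6.005 ± 0.330) and Hoxa11 (5.75 ± 0.451) led it on the RPKM scale, with overlapping samples. Hoxa10 and Hoxa11 pattern the proximal and middle segments of the limb, and Hoxc6 marks the thoracic level. Hoxc13 (4.43 ± 0.606), Hoxa7 (4.30 ± 0.147), Hoxa9 (4.2 ± 0.901) and Hoxc9 (3.99 ± 0.432) lay below them and overlapped with each other. Hoxc4 (2.96 ± 0.0653), Hoxc5 (1.54 ± 0.215) and Hoxa5 (1.12 ± 0.223), genes of cervical and upper thoracic identity, completed the 12 expressed members, each of these 3 below the gene before it without overlap.

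The low members under the limit included Hoxc8 (0.963 ± 0.0407), Hoxa2 (0.801 ± 0.265), Hoxa3 (0.712 ± 0.0688) and Hoxa13 (0.638 ± 0.111), and neighbours in this order overlapped. Expression along a cluster was thus not a single block. In HoxA, Hoxa6 was low (0.692 ± 0.229) between the expressed Hoxa5 and Hoxa7, and the level dropped again at Hoxa13. In HoxC, Hoxc12 was low at 0.401 ± 0.0341 on the RPKM scale between its expressed neighbours Hoxc11 and Hoxc13. With the longest transcript in place of merged exons, 14 members were expressed, since Hoxa3 and Hoxc8 crossed the limit, and 17 had a mean of at least 1 CPM.

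HoxB and HoxD were near the floor. In HoxB, Hoxb4 (0.185 ± 0.00756), Hoxb3 (0.15 ± 0.0495), Hoxb6 (0.116 ± 0.0303) and Hoxb5 (0.0821 ± 0.0338) were low on the RPKM scale in si Ctrl, and the other 6 members never exceeded 8 counts in any of the 9 samples. In HoxD the 9 members together gave 1 to 8 counts per sample. Hoxd1, Hoxd3, Hoxd8, Hoxd12 and Hoxd13 had 0 counts in all 9 samples, which at this depth allows up to 0.0826 CPM in a sample, and this covers counting error only.

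Paralogs with similar sequences were separated well. At most 0.364% of the 50-base windows of any member's transcripts (Hoxa6) occur also in a Hox gene of another cluster. Overlap with neighbours in the same cluster was larger. For Hoxa11, 33.0% of windows are shared with the antisense gene Hoxa11os, for Hoxa3 24.3% with genes that include the antisense Hoxaas2, and for Hoxa7 18.7% with Hoxaas3, while Hoxc5 and Hoxc10 share 119 windows. In HoxB, Hoxb3 shares 51.4% and Hoxb2 25.9% of windows with the antisense Hoxb3os. Hoxa13, Hoxc6, Hoxa10, Hoxc11 and Hoxc13 share none. Whether the reads kept their strand is not stated, so reads of Hoxa3, Hoxa7, Hoxa11, Hoxb2 and Hoxb3 and of their antisense partners may have been exchanged.

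Neither knockdown opened a silent Hox gene by the rule used. A gene was called opened when all si Ctrl samples had 3 counts or fewer and all samples of the knockdown had more, and closed in the reverse case. No member was opened with si mH2A1.1, where 0.373% of the 52780 genes were, or with si mH2A1.2, where 0.125% were. None was closed either, against 0.140% and 0.176% of all genes. Only Hoxb2, Hoxb8, Hoxb9, Hoxb13 and the HoxD genes had 3 counts or fewer in every si Ctrl sample and could open. The shares are over all genes, including those too high in si Ctrl to open. With so few eligible members and shares this small, 0 opened members says little about Hox silencing. By merged exons, the 12 expressed members of si Ctrl were also the 12 expressed under si mH2A1.1, and Hoxc8 was added under si mH2A1.2 (1.19 ± 0.140 on the RPKM scale). This depended on the measure. With the longest transcript, 14 were expressed in si Ctrl, 12 under si mH2A1.1, without Hoxa3 and Hoxc8, and 14 under si mH2A1.2. A mean of at least 1 CPM gave 17, 15 and 17 in the same order.

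The members nearest to opening lay in HoxB, and they are named after their values were seen. Hoxb9 had 2, 1 and 2 counts in si Ctrl and 6, 6 and 3 with si mH2A1.1. Hoxb2 had 1, 3 and 2 counts in si Ctrl and 1, 8 and 4 with si mH2A1.1. Each was opened once a single si mH2A1.1 sample was left out, replicate 3 for Hoxb9 and replicate 1 for Hoxb2. The share of all genes opened was not computed with a sample left out. Hoxb6 was opened when the floor was set at 10 counts, as were 0.440% of all genes, with 10, 6 and 10 counts in si Ctrl against 14, 21 and 15 with si mH2A1.1. In a test across all genes the log2 difference of Hoxb6 was 0.81 (standard error 0.42, edgeR adjusted p = 0.226). The HoxD cluster had 1 to 4 counts in si Ctrl samples, 2 to 5 under si mH2A1.1 and 4 to 8 under si mH2A1.2, so that si Ctrl and si mH2A1.2 met at 4 counts. No single HoxD gene exceeded 4 counts in any sample.

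With the knockdown of macroH2A1.1, 1 Hox gene was called against si Ctrl, and most other members had lower values that did not pass the test. Across all genes that passed a filter on low counts (19545 genes, 24 of them Hox members), edgeR's quasi-likelihood test with Benjamini-Hochberg adjustment called a gene by a stricter rule (adjusted p below 0.01, with a log2 difference of 0.8 or more in either direction) or a wider rule (adjusted p of 0.05 or less). The members that passed the filter were all 11 of HoxA, all 9 of HoxC and 4 of HoxB. By the stricter rule 0 of 24 were called, against 1.8% of all genes tested. By the wider rule 1 was called, lower, against 11.1% called in all and 4.93% called lower. At an unadjusted p below 0.05 there were 5 of 24 members, against 29.6% of all genes tested.

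The gene that fell was Hoxa13 (ENSMUSG00000038203, chr6:52257694-52260880), which specifies the hand, the foot and the hindgut end. Its si Ctrl samples held 1.45, 1.89 and 1.39 CPM, and its si mH2A1.1 samples 0.692, 0.914 and 0.783 CPM. The groups did not overlap, and every si mH2A1.1 sample was lower. Hoxa13 fell by 0.98 on the log2 scale (standard error 0.26, edgeR adjusted p = 0.0385). The call was lost without si Ctrl replicate 1, 2 or 3, si mH2A1.1 replicate 1 or 3 or si mH2A1.2 replicate 2, with adjusted p between 0.0557 and 0.136, and the fold change stayed between -1.09 and -0.83. Hoxa13 rests on few reads, 28 to 71 counts per sample in these groups.

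Among the other 23 members tested, 17 had a negative and 6 a positive log2 difference, none of which passed the test. The median of the 24 was -0.20, against -0.01 over all genes tested. In 9 of the 24 every si mH2A1.1 sample was below every si Ctrl sample, against 16.7% of all genes tested, and in 3 every sample was above, against 17.5%. The 9 were Hoxa3, Hoxa4, Hoxa7, Hoxa9, Hoxa11, Hoxa13, Hoxc6, Hoxc8 and Hoxc12, and the 3 were Hoxb6, Hoxc4 and Hoxc5. Of the HoxA members 10 of 11 were negative, and of the HoxC members 7 of 9. The 6 positive members were Hoxa5, Hoxb3, Hoxb4, Hoxb6 and the neighbours Hoxc4 and Hoxc5 at the anterior end of HoxC.

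Hoxa3, which acts in pharyngeal organs and the neck, had the next largest negative difference. It had 3.83, 4.64 and 4.38 CPM in si Ctrl and 1.66, 3.19 and 2.79 CPM with si mH2A1.1, without overlap. Its log2 difference was -0.75 (standard error 0.25, edgeR adjusted p = 0.0805). Hoxa9, a gene of the posterior trunk and the upper limb, had a log2 difference of -0.58 (standard error 0.20, adjusted p = 0.0908). Hoxc6 had one of -0.33 (standard error 0.10, adjusted p = 0.0679). All 3 missed the wider rule here. DESeq2 called Hoxa3 and Hoxc6 (adjusted p = 0.0363 and 0.0345), and without si mH2A1.1 replicate 2 edgeR called Hoxa3 too (adjusted p = 0.0480). With the replicate number as a block, edgeR called all 3, as given with the other alternatives below. The numbers were not taken to pair the si mH2A1.1 and si Ctrl samples.

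The highest members were not called. Hoxc10 had 41.3, 57.6 and 51.6 CPM in si Ctrl and 43.0, 38.4 and 40.4 CPM with si mH2A1.1, and the groups overlapped (log2 difference -0.31, standard error 0.18, edgeR adjusted p = 0.285). Hoxa10 was the tightest member, at 20.0 ± 0.372 CPM in si Ctrl and 19.0 ± 1.02 CPM with si mH2A1.1 (log2 difference -0.08, standard error 0.09, adjusted p = 0.635). Hoxc4 and Hoxc5, which were apart in the other direction like Hoxb6, had log2 differences of 0.27 and 0.38 (standard errors 0.12 and 0.15, adjusted p = 0.170 and 0.127).

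**Figure D2:**
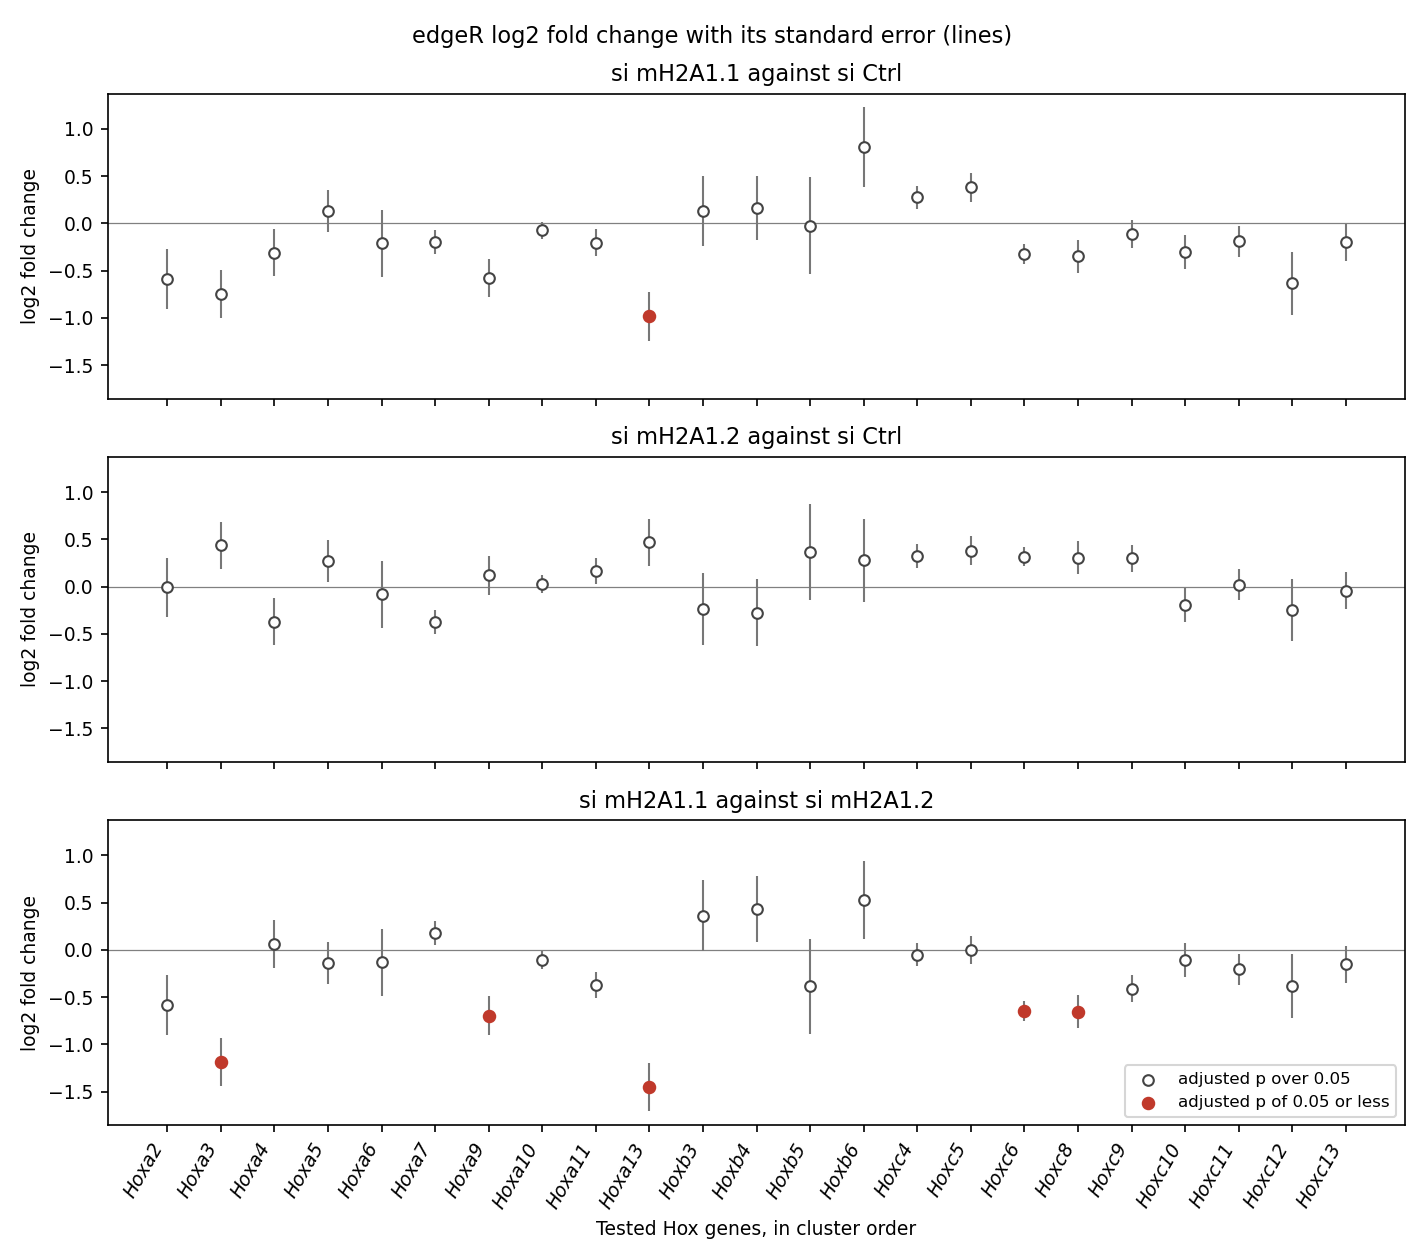
The edgeR log2 fold change of the tested Hox genes, in cluster order along the horizontal axis, for the 3 comparisons (panels), with lines for 1 standard error. Filled points have an adjusted p of 0.05 or less: Hoxa13 alone with si mH2A1.1 against si Ctrl, none with si mH2A1.2, and Hoxa3, Hoxa9, Hoxa13, Hoxc6 and Hoxc8, all below 0, between the knockdowns.

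Summed over the HoxA cluster, the level per length was lower with si mH2A1.1 in all 3 samples. It was 26.1, 26.9 and 24.4 on the RPKM scale in si Ctrl, 19.8, 22.9 and 22.3 under si mH2A1.1 and 23.9, 27.5 and 28.2 under si mH2A1.2. The si mH2A1.1 sums lay below those of both other groups. For HoxC the sums were 48.2, 61.9 and 57.0 in si Ctrl, 49.7, 46.2 and 48.8 under si mH2A1.1 and 45.3, 61.7 and 61.3 under si mH2A1.2, and the groups overlapped. The share of HoxA in the Hox total was 31.5% in si Ctrl, 30.6% in si mH2A1.1 and 32.0% in si mH2A1.2 cells, and the samples overlapped.

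The knockdown of macroH2A1.2 left the Hox genes without a call. Against si Ctrl, 0 of 24 members were called by either rule, against 0.179% of all genes tested by the stricter rule and 2.35% by the wider. DESeq2 and every other alternative also called 0 by the wider rule, and 4 members had an unadjusted p below 0.05 (Hoxa7, Hoxc4, Hoxc5 and Hoxc6), against 15.9% of all genes tested. Every si mH2A1.2 sample was above every si Ctrl sample for Hoxc4, Hoxc5, Hoxc6 and Hoxc8, against 11.7% of all genes tested, and below for Hoxa7, against 10.8%. The median log2 difference of the 24 was 0.07, against 0 over all genes. With the replicate number as a block, which pairs these samples, the calls over all genes were 116 in place of 35 by the stricter rule and 1005 in place of 460 by the wider, and still 0 were Hox members.

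The 4 neighbouring HoxC genes made up most of these values. Hoxc6 had 13.6, 15.2 and 14.6 CPM in si Ctrl and 16.9, 18.4 and 18.8 CPM with si mH2A1.2 (log2 difference 0.32, standard error 0.10, edgeR adjusted p = 0.156). Hoxc4 had 7.74, 7.41 and 7.63 CPM against 9.33, 9.31 and 9.88 CPM (0.33, standard error 0.12, adjusted p = 0.230). The groups were apart in both genes, by less than the test over all genes asks for. Hoxc5 (0.38, standard error 0.15, adjusted p = 0.253) and Hoxc8 (0.31, standard error 0.17, adjusted p = 0.429) had log2 differences of the same size. Hoxa7, a trunk gene at the centre of HoxA, had 12.8, 12.0 and 12.2 CPM in si Ctrl and 9.5, 10.3 and 8.73 CPM with si mH2A1.2 (log2 difference -0.38, standard error 0.13, adjusted p = 0.167).

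Between the knockdowns, 5 Hox genes differed, all lower with si mH2A1.1. By the stricter rule 2 of 24 were called, Hoxa13 and Hoxa3, against 6.38% of all genes tested. By the wider rule Hoxc6, Hoxc8 and Hoxa9 were added, 5 of 24 against 22.5% of all genes tested, and against 10.5% that were called lower. In 8 of the 24 every si mH2A1.1 sample was below every si mH2A1.2 sample, against 19.4% of all genes, and in 0 every sample was above, against 20.3%. This comparison shares its samples with the comparisons against si Ctrl, so the 3 are not independent.

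Hoxa13 had 1.57, 2.45 and 2.52 CPM with si mH2A1.2, all above the 0.692 to 0.914 CPM with si mH2A1.1. The log2 fold change was -1.45, with a standard error of 0.26 (edgeR adjusted p = 0.00407). Against si Ctrl, the si mH2A1.2 samples differed by 0.47 on the log2 scale (adjusted p = 0.401, standard error 0.25), and those groups overlapped. Hoxa3 had 4.43, 6.11 and 6.88 CPM with si mH2A1.2, against 1.66 to 3.19 CPM with si mH2A1.1 (log2 fold change -1.19, standard error 0.25, adjusted p = 0.00943). Both stayed called by the wider rule without any 1 sample. Their adjusted p then reached at most 0.0207 and 0.0377. The stricter rule lost both when only the samples of the 2 knockdowns were fitted, 1 of them without any 1 si Ctrl sample, and both without si mH2A1.1 replicate 1 or 3 or si mH2A1.2 replicate 2 or 3.

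Hoxc6 (chr15:102998257-103011881) was the steadiest of the 5. It had 11.6, 11.8 and 11.2 CPM under si mH2A1.1 and 16.9, 18.4 and 18.8 CPM under si mH2A1.2, with the si Ctrl samples between them. The log2 fold change was -0.65 (standard error 0.10, edgeR adjusted p = 0.00256), and the adjusted p stayed between 0.00394 and 0.0148 without any 1 sample. Hoxc8 (chr15:102990607-102994111), its neighbour, which marks the thoracic level, had 2.02, 2.05 and 2.35 CPM against 3.52, 3.68 and 2.93 CPM (-0.66, standard error 0.17, adjusted p = 0.0229). Hoxc8 lost its call without si mH2A1.1 replicate 1 or 2 or si mH2A1.2 replicate 2 (adjusted p = 0.0510 to 0.0901) and, at 0.0510, without a filter on low counts.

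Hoxa9 (chr6:52223100-52231089) had 13, 17.9 and 16.2 CPM under si mH2A1.1 and 19.3, 30.6 and 26.4 CPM under si mH2A1.2 (-0.70, standard error 0.20, edgeR adjusted p = 0.0345). It lost its call without si mH2A1.1 replicate 1 or 3 or si mH2A1.2 replicate 2 or 3 (adjusted p = 0.0819 to 0.139). Without si mH2A1.2 replicate 1, the sample of that group with the lowest Hoxa9, Hoxa11 and Hoxc9 were called as well (adjusted p = 0.0279 and 0.0369), which brought the count to 7 members. The count was lowest, at 3, without si mH2A1.1 replicate 1 or si mH2A1.2 replicate 2.

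**Figure D3:**
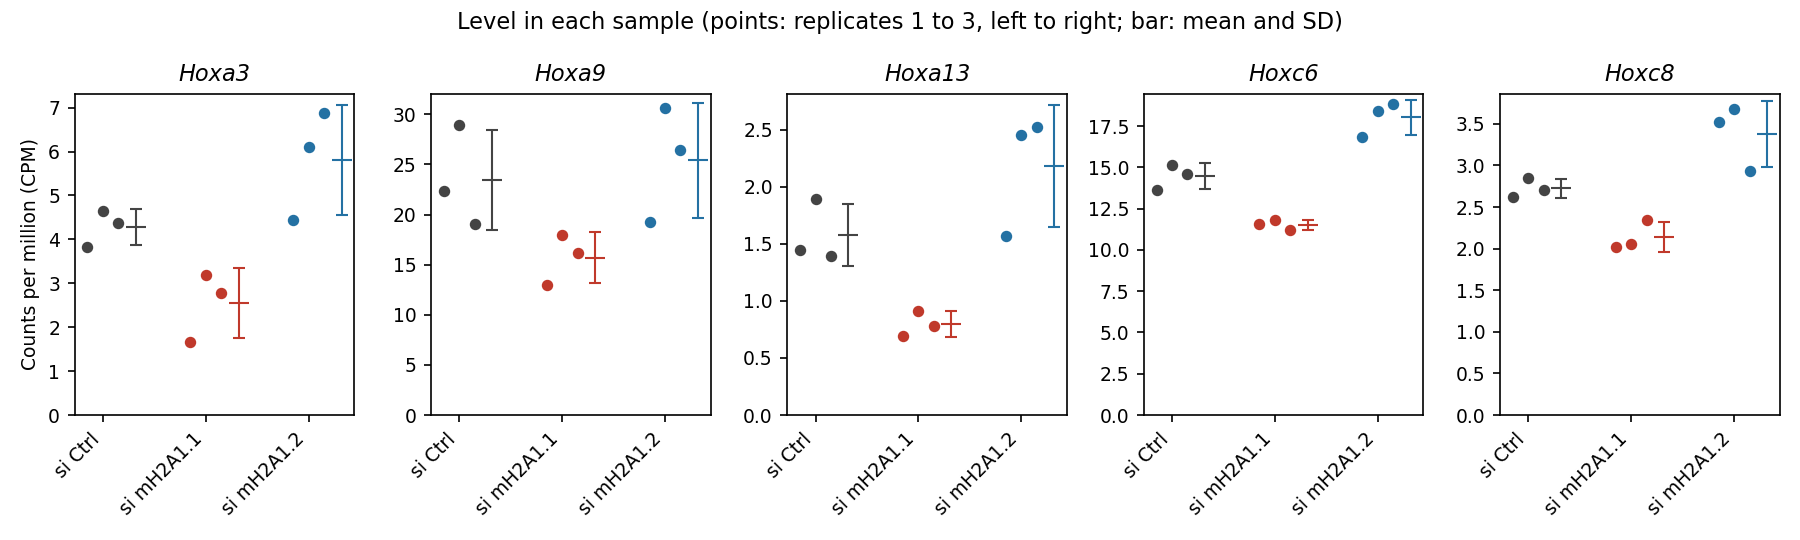
CPM of the 5 Hox genes called in at least 1 comparison, in each of the 9 samples (points, replicates 1 to 3 from left to right within a group), with the mean and SD of each group beside them and axes starting at 0. In each gene the 3 si mH2A1.1 samples lie below all si mH2A1.2 samples, and the si Ctrl samples lie above those of si mH2A1.1.

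Other transcripts of the clusters had mostly negative differences with si mH2A1.1. Of 46 annotated non-member genes inside the clusters, mostly noncoding RNAs, 18 were tested, most of them in HoxA. Of these, 17 had a negative log2 difference against si Ctrl, as did 9941 of all 19545 genes tested. The median was -0.53, against -0.01 over all genes tested. By the wider rule 2 fell, both on the strand opposite to Hoxa3, beside 4.93% of all genes tested that were called lower. Hoxaas2 had 3.64, 2.85 and 3.17 CPM in si Ctrl and 1.43, 1.88 and 2.14 CPM with si mH2A1.1 (log2 fold change -0.82, standard error 0.20, edgeR adjusted p = 0.0286). The gene 5730596B20Rik had 1.82, 2 and 1.5 CPM against 0.272, 0.914 and 0.691 CPM (-1.495, standard error 0.385, adjusted p = 0.0354). Both overlap exons of Hoxa3, by 503 and 292 bases, so that their reads and those of Hoxa3 are not independent.

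These 2 calls were lost without any 1 of the si Ctrl samples or without si mH2A1.1 replicate 1 or 3, and 1 gene was called without si mH2A1.2 replicate 2. Hotair, the long noncoding RNA between Hoxc11 and Hoxc12 that binds Polycomb proteins, had 5.41, 6.45 and 6.08 CPM in si Ctrl and 4.69, 5.24 and 4.84 CPM with si mH2A1.1, without overlap (log2 difference -0.28, standard error 0.14, edgeR adjusted p = 0.202), and was named after its values were seen. With si mH2A1.2 against si Ctrl, 0 of the 18 were called by edgeR, beside 2.35% of all genes tested. At an unadjusted p below 0.05 there was 1, beside 15.9% of all genes tested, and the median was -0.03. Between the knockdowns Hoxaas2 and 5730596B20Rik were called lower with si mH2A1.1, beside 10.5% of all genes tested. The median was -0.52, against -0.01 over all genes tested. The count there was 1 without si mH2A1.1 replicate 1 or si mH2A1.2 replicate 3, and 0 without si mH2A1.2 replicate 2.

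**Figure D4:**
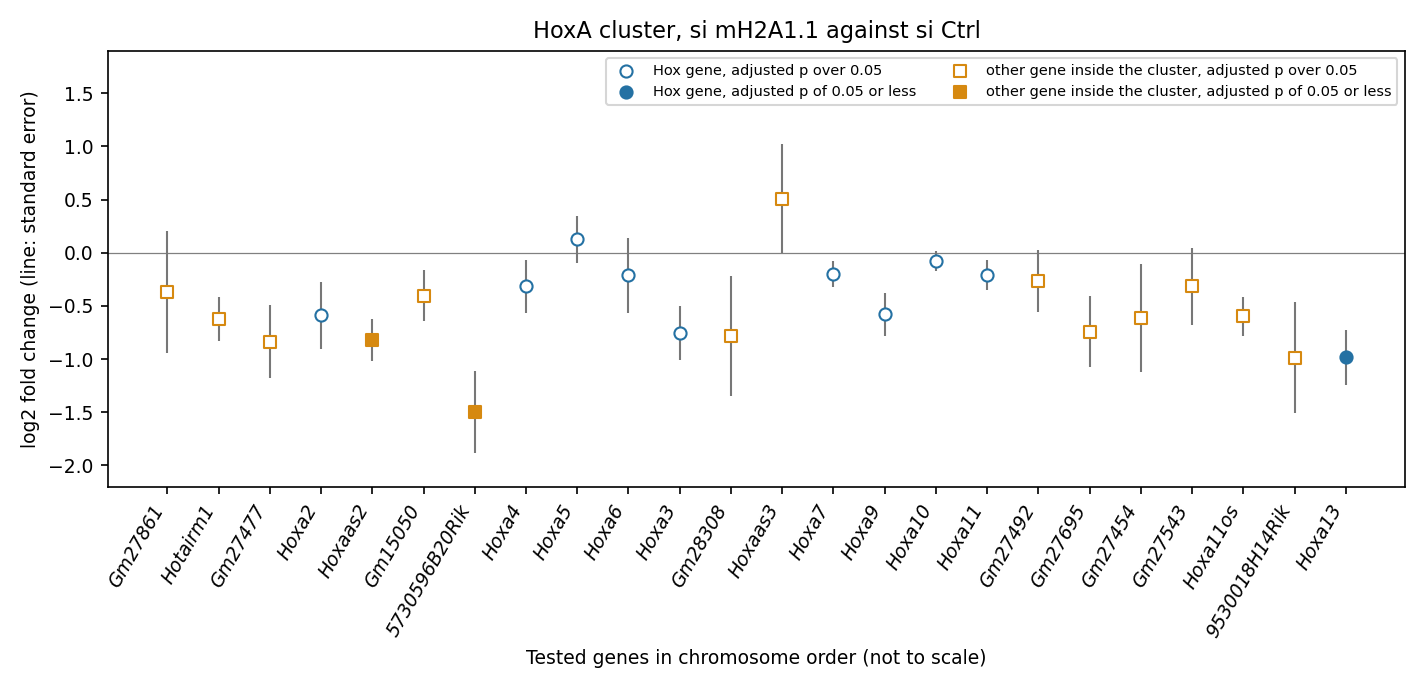
The edgeR log2 fold change of tested genes of the HoxA cluster with si mH2A1.1 against si Ctrl, ordered along the chromosome (not to scale), with lines for 1 standard error. Circles are Hox genes and squares the other genes inside the cluster. All values are below 0 but those of Hoxa5 and Hoxaas3, and the filled points Hoxa13, Hoxaas2 and 5730596B20Rik have an adjusted p of 0.05 or less.

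The nearest protein-coding genes outside the clusters showed no shared direction. Of 33 tested among the 40 flanking genes, 3 rose and 2 fell with si mH2A1.1 against si Ctrl by the wider rule, against 6.18% of all genes tested that were called higher and 4.93% called lower, and the median log2 difference was 0.03. Cbx5, which encodes the heterochromatin protein HP1 alpha and lies beside HoxC, fell by 0.55 on the log2 scale (standard error 0.11, edgeR adjusted p = 0.0131), and Chn1 beside HoxD rose by 0.64 (standard error 0.13, adjusted p = 0.0151). The 5 calls became 1 or 2 without si Ctrl replicate 2 or 3 or si mH2A1.1 replicate 1, and 0 without si mH2A1.1 replicate 3. In the comparison of si mH2A1.2 with si Ctrl, 0 were called by edgeR without the replicate block, beside 2.35% of all genes tested. DESeq2 called 1, and so did edgeR with the block, which pairs these samples (Chn1, log2 fold change -0.54, adjusted p = 0.0122 with the block). At an unadjusted p below 0.05 there were 3, beside 15.9% of all genes tested. Between the knockdowns 5 were higher and 3 lower with si mH2A1.1, beside 22.5% of all genes tested that were called and 10.5% called lower. The calls numbered 3 to 5 in all without si mH2A1.1 replicate 1 or 3 or si mH2A1.2 replicate 2.

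The genes whose products work with Hox proteins were called about as often as all genes. Of the 9 Hox cofactors of the Pbx, Meis and Pknox families, which bind DNA together with Hox proteins, 1 rose and 0 fell with si mH2A1.1 against si Ctrl, beside 11.1% of all genes tested that were called. This was Pknox1, at 28.9 ± 1.93 CPM in si Ctrl and 42.7 ± 1.46 CPM with si mH2A1.1 (log2 fold change 0.56, standard error 0.09, edgeR adjusted p = 0.00613). Between the knockdowns 1 of the 9 was higher, again Pknox1 (log2 fold change 0.61, edgeR adjusted p = 0.00163), and 1 was lower with si mH2A1.1, beside 22.5% of all genes tested that were called. For si mH2A1.2 against si Ctrl, 0 of the 9 were called by edgeR, beside 2.35% of all genes tested. At an unadjusted p below 0.05 there were 2, beside 15.9% of all genes tested.

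Among 31 Polycomb and Trithorax genes, whose products hold Hox genes silent or active, 1 rose and 5 fell with si mH2A1.1 against si Ctrl, where 6.18% of all genes tested were called higher and 4.93% lower. The smallest adjusted p among those that fell belonged to Pcgf2 (-0.62, standard error 0.14, edgeR adjusted p = 0.0213) and Ring1 (-0.61, standard error 0.14, adjusted p = 0.0234), subunits of Polycomb repressive complex 1, and Cbx7, its reader of methylated histone H3, fell by 0.86 on the log2 scale (adjusted p = 0.0293, standard error 0.21). Pcgf5 had the largest fall, by 0.94 (adjusted p = 0.0468, standard error 0.26), and was named after its values were seen. Rybp, another subunit, rose (0.43, standard error 0.10, adjusted p = 0.0276). In the si mH2A1.2 comparison with si Ctrl, 0 of the 31 were called by edgeR, with 4 at an unadjusted p below 0.05, beside 15.9% of all genes tested. Between the knockdowns 2 of the 31 were higher and 11 lower with si mH2A1.1, where 22.5% of all genes tested were called and 10.5% called lower. Over the 31, the median log2 difference from si Ctrl was -0.19 under si mH2A1.1, and 0.02 under si mH2A1.2.

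Of 24 limb and muscle patterning genes, 15 were tested, and 1 rose and 1 fell with si mH2A1.1 against si Ctrl, again beside 11.1% of all genes. The si mH2A1.2 comparison with si Ctrl called 0, with 6 at an unadjusted p below 0.05, beside 15.9% of all genes tested. Between the knockdowns 4 were higher and 3 lower with si mH2A1.1, where 22.5% of all genes tested were called and 10.5% called lower. The 6 ParaHox genes, a sister cluster of the Hox genes, had at most 6 counts in any sample and did not pass the filter. Cdx1, named after its values were seen, had 2, 1 and 1 counts in si Ctrl and 4, 6 and 6 under si mH2A1.2, so that it met the rule for an opened gene, as 0.125% of all genes did.

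Markers of other cell states differed between the groups and stand beside every Hox difference above. The summed level of 6 fibroblast markers was 8004 to 9723 CPM in si Ctrl, 3421 to 5749 CPM under si mH2A1.1 and 10160 to 13820 CPM under si mH2A1.2. In all groups 5 of the 6 were over the floor, Tcf21 was at 0 to 2 counts, and Col3a1 made up most of the sum. With si mH2A1.1 against si Ctrl, Col3a1 and Lum fell by 1.06 and 2.74 on the log2 scale (edgeR adjusted p = 0.0142 and 0.00608), while Dcn, Pdgfra and Thy1 had log2 differences of 0.06, 0.11 and -0.18 that were not called. With si mH2A1.2 none of the list was called, and Lum had a log2 difference of -0.52 although the sum was higher. The 6 markers of undifferentiated and cycling myoblasts summed to 273 to 430 CPM, 405 to 754 CPM and 211 to 312 CPM in the same order, with 6 of 6 over the floor. All 6 were called higher with si mH2A1.1 than with si mH2A1.2, where 22.5% of all genes tested were called in either direction. The 4 neural crest and neural markers summed to 8.41 to 19.5 CPM in si Ctrl, 50.2 to 117 CPM under si mH2A1.1 and 12.5 to 47.3 CPM under si mH2A1.2, almost all of it from Tubb3, with Sox10 at 0 to 2 counts. Tubb3 was called higher with si mH2A1.1 against si Ctrl (log2 fold change 2.57, edgeR adjusted p = 0.0197). Of the 3 tested, 2 were positive and 1 negative. The 6 endothelial and immune markers summed to 3.59 to 5.25, 6.89 to 12.4 and 3.89 to 4.43 CPM, mostly from Cd68, with Adgre1 at 0 to 1 count. Cd68 was called higher with si mH2A1.1 against si Ctrl (log2 fold change 1.62, edgeR adjusted p = 0.00565). Here too 2 of the 3 tested were positive and 1 negative. Myotube markers differed too. Against si Ctrl, Myog and Mymx fell by 0.66 and 0.82 on the log2 scale with si mH2A1.1 (edgeR adjusted p = 0.0204 and 0.0221). Des and Tnnt3 fell by 0.62 and 0.96 with si mH2A1.2 (edgeR adjusted p = 0.0466 and 0.0280). With the replicate block, which pairs these samples, their edgeR adjusted p was 0.0120 and 0.00541. DESeq2 and the block called another of the list lower too. In either comparison 0 of the 9 were called higher by edgeR without the replicate block. The list was mixed with si mH2A1.1, with 3 positive and 6 negative log2 differences. In 2 of the 9 every si mH2A1.1 sample was above every si Ctrl sample, against 17.5% of all genes tested, and in 3 below, against 16.7%. Des was among the 2, with a log2 difference of 0.45 that edgeR without the block did not call (adjusted p = 0.0577). DESeq2 and edgeR with the block called Des higher (adjusted p = 0.00885 and 0.0136). The block also called another of the list higher, and both called another of the list lower. The part of these shifts in the Hox values was not tested.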

How the data were processed

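PolyA mRNA was sequenced by the authors as single reads of 50 bases, and the reads of each gene were estimated with Salmon on GRCm38. The deposited values used here are these expected counts per gene, given as whole numbers without normalization. The authors' second table, the same counts after size factor scaling, was not used. The annotation release is not given in the sources used here. GENCODE M21 gave symbols, positions and exon lengths for 52762 of the 52780 genes. Library type and strand are not given either.

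Counts were tested in R 4.3.3 with edgeR 4.0.16 (quasi-likelihood test in its legacy form, TMM, filterByExpr by group, Benjamini-Hochberg over 19545 genes), with 9 samples in 1 model and 3 contrasts. The standard error is the absolute log2 fold change over the square root of F. CPM uses TMM-scaled library sizes, and the RPKM scale divides by kilobases of merged exons. The fit was checked on simulated counts with known changes. The members and gene lists were chosen with earlier results of these data known. Members named are those with a mean of 1 CPM in any group, called, opened or closed, and other members are named after their values were seen. From each other list up to 4 called genes are named. Alternatives were DESeq2 1.42.0, its size factors in edgeR, no filter, a minimum of 10 counts in all samples, a replicate block, fits of only the 2 groups compared, leaving out each sample, another gene length or threshold for expressed genes, and a floor of 10 counts. Deviations from the group mean of same-numbered samples of si mH2A1.2 and si Ctrl correlated with r = 0.196 to 0.331 over the 3 pairs, each over 0.1, so the numbers were taken to pair these samples. The edgeR p-values are nevertheless from the model without the replicate block unless the block is named. With si mH2A1.1 at least 1 pair was below 0.1. Promoter windows came from RefSeq (GRCm38.p6). Python 3.11.15, pandas 2.3.3 and matplotlib 3.10.9 were used. The chromatin immunoprecipitation was not analysed here. The single values of 1 Hox member and of 3 genes of the other lists are not reported or drawn here, and these genes stay in the counts and sums.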

Additional observations from a re-analysis of the deposited data

How the results depend on the processing

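With si mH2A1.1 against si Ctrl, the stricter rule called 352 genes, and 992 with DESeq2, 800 without a filter, 195 from the samples of its 2 groups and 32 to 546 without 1 sample (lowest without si Ctrl replicate 3). The wider rule called 2171, and 3354 with DESeq2 and 605 to 2928 without 1 sample (lowest without si Ctrl replicate 2). It called 1 Hox member, and 3 with DESeq2 (Hoxa3, Hoxa13, Hoxc6) and 0 to 2 without 1 sample. It called 2 other genes inside the clusters, and 1 from the samples of the 2 groups and 0 to 3 without 1 sample, and 5 flanking genes, and 0 to 5 without 1 sample.

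With si mH2A1.2 against si Ctrl, the stricter rule called 35 genes, and 370 with DESeq2, 252 without a filter, 4 from the samples of its 2 groups and 0 to 31 without 1 sample (0 without si Ctrl replicate 3, si mH2A1.1 replicate 3 or si mH2A1.2 replicate 2). The wider rule called 460, and 1096 with DESeq2 and 74 to 544 without 1 sample (lowest without si Ctrl replicate 1), and flanking genes were 0, and 1 with DESeq2 or without a filter.

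Between the knockdowns, the stricter rule called 1247 genes, and 1911 with DESeq2 and 505 to 1442 without 1 sample, and the wider rule called 4397, and 2251 to 4616 without 1 sample (both lowest without si mH2A1.2 replicate 2). Hox members were 2 by the stricter rule, and 0 from the samples of the 2 groups and 0 to 2 without 1 sample, and 5 by the wider rule, and 3 to 7 without 1 sample. Other genes inside the clusters were 2, and 0 to 3 without 1 sample, and flanking genes were 8, and 3 to 9 without 1 sample. Opened members with si mH2A1.1 were 0, and 1 with a floor of 10 counts and 0 to 1 without 1 sample.

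With the replicate block, the si mH2A1.1 comparison with si Ctrl gave 795 genes by the stricter and 4065 by the wider rule, of 19545 tested. By the wider rule it gave 4 of the 24 Hox members tested (Hoxa13 0.0179, Hoxa3 0.0174, Hoxa9 0.0195 and Hoxc6 0.0401 as edgeR adjusted p). It also gave 4 other genes inside the clusters and 9 flanking genes. Here same-numbered samples correlated with r = 0.0840 to 0.0976, and every sample correlated best with its own number. The library numbers run in sequence within each replicate number, but what such a set shared is not stated. With si mH2A1.2 against si Ctrl the block gave 116 and 1005 genes and 1 flanking gene. Between the knockdowns it gave 4 genes inside the clusters, 13 flanking genes and Hoxc9 as a called member (adjusted p = 0.0197). The cause of these differences was not tested.

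Of 720 log2 fold changes of the 16 named members under alternatives, 699 kept their direction. The other 21 belonged to values that were not called. With all samples these were Hoxa2 with si mH2A1.2 against si Ctrl (0.031 with the replicate block) and Hoxc5 between the knockdowns (0.001 with DESeq2 size factors, 0.003 with DESeq2 and 0.005 with the block). Without 1 sample, the log2 fold change with si mH2A1.1 against si Ctrl ran from -0.044 to 0.235 for Hoxa5. With si mH2A1.2 against si Ctrl it ran from -0.26 to 0.209 for Hoxa2, -0.042 to 0.298 for Hoxa9, -0.003 to 0.042 for Hoxa10, -0.108 to 0.158 for Hoxc11 and -0.169 to 0.147 for Hoxc13. Between the knockdowns it ran from -0.143 to 0.005 for Hoxc4 and -0.063 to 0.053 for Hoxc5. The counts of expressed members stayed within 1.5 times under every alternative run. Lists of cofactors, Polycomb, Trithorax, patterning and marker genes were not recomputed without single samples. Members with 8 counts or fewer in every sample were removed by the filter, and 34 members could be fitted without it.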
